A study of Mus musculus with 8 samples.

Results

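Endothelial cells (ECs) of implanted breast tumours were compared 3 h after an injection of cGAMP or of PBS into the tumour. A cell was taken as an EC when it held at least 1 unique molecular identifier (UMI, the tag that marks each captured mRNA molecule) of Pecam1, the gene of CD31, and UMIs of fewer than 2 of the 6 genes Rgs5 and Pdgfrb (mural cells), Epcam and Krt8 (epithelial cells), and Ptprc and Tyrobp (leukocytes). This rule kept 3848 of the 4968 deposited cells of the 4 implanted libraries, and the whole series held 8204 cells. The PBS libraries 1 and 2 gave 949 and 1056 ECs, and the cGAMP libraries 1 and 2 gave 1304 and 539.

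Per the study's methods, the injected agent was 3'3'cGAMP. In cells, a cGAMP, not necessarily the injected form, is the second messenger that cGAS makes from ATP and GTP on sensing cytosolic DNA. It binds STING on the endoplasmic reticulum, which recruits TBK1 and activates IRF3 and NF-kB, and the resulting type I interferon acts back on cells through IFNAR and JAK kinases to raise antiviral, antigen presentation and chemokine genes. ECs line the vessels through which leukocytes enter a tumour, and they answer interferon, TNF, VEGF and angiopoietins.

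Mice carried either spontaneous MMTV-PyMT breast tumours, in which the mammary tumour virus promoter drives the polyoma middle T antigen in mammary epithelium, or tumours implanted into the mammary fat pad. Per the study's methods, implanted tumours came from MMTV-PyMT tumour cells kept 2 days in culture and put into 8- to 9-week-old female FVB mice, whereas spontaneous tumours were treated at 9 weeks. The labels call the strain c57bl/6 and the age adult for every sample, so the strain is not settled. Each of the 4 groups (spontaneous PBS, spontaneous cGAMP, implanted PBS, implanted cGAMP) held 2 libraries, with 2 mice per group, and all cells came from the injected tumour and were sorted by FACS as live CD45- CD31+ cells.

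The kept cells had the markers of ECs. The summed level of the 10 endothelial markers (Cdh5, Kdr, Tie1 and others) was 6647 and 6335 CPM in implanted PBS libraries 1 and 2. It was 6562 and 7133 CPM in the cGAMP libraries 1 and 2. None was at 0, but the list includes Pecam1, which the rule required in every kept cell. A level is the mean over the ECs of a library of each cell's UMIs of the gene scaled to a sum of 1000000 UMIs in that cell. The shallowest library was implanted cGAMP 1, with a median of 2776 UMIs per EC against 12946, 13107 and 13210 in the others, and 41.2% of its ECs held fewer than 2000 UMIs against 6.34% to 9.38%. Summed UMIs of the ECs ran from 8620118 to 15445737 per library, and any 2 libraries shared at most 3 cell barcodes.

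Markers of other cells and measures of cell quality moved with the treatment. The mural, epithelial and myeloid lists hold the 6 genes that the EC rule limits in kept cells. The median share of mitochondrial UMIs per EC was 4.24% and 4.23% with PBS and 2.72% and 2.31% with cGAMP, and the EC rule kept 86.4% and 88.7% of cells against 64.4% and 82.4%. The 7 lymphatic EC markers summed to 605 and 425 CPM with PBS and to 1703 and 1950 CPM with cGAMP. Within that list Ccl21a went from 343 and 212 CPM to 1231 and 1342 CPM, while Prox1, the lymphatic master regulator, was 52.3 and 47.0 CPM with PBS and 39.7 and 60.7 CPM with cGAMP. The 11 myeloid markers summed to 27.2 and 12.5 CPM with PBS and to 234 and 55.6 CPM with cGAMP, and the 7 T and NK cell markers to 1.5 and 3.36 CPM against 48.1 and 28.5 CPM. ECs with at least 3 lymphatic markers made up 5.58% and 4.07% of ECs with PBS and 7.82% and 12.4% with cGAMP, and those with at least 3 myeloid, T or NK markers 0.316% and 0.379% against 3.91% and 3.34%. Epithelial markers summed to 382 and 249 CPM with PBS and to 923 and 149 CPM with cGAMP, with overlap between the groups. The 8 mural markers summed to 109 and 93.2 CPM with PBS and to 184 and 119 CPM with cGAMP, and the 6 fibroblast markers to 19.9 and 13.6 CPM against 77.5 and 63.6 CPM. The 5 red blood cell genes summed to 11.1 and 0.285 CPM with PBS and to 36.9 and 1.82 CPM with cGAMP. Defining markers at 0 were Cd3e in PBS 1, Itgam in PBS 2, Cspg4 in cGAMP 2 and 1 to 3 of the red blood cell genes in every library.

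The first question was which genes ECs of implanted tumours changed after cGAMP. Of 10335 genes tested, 818 were higher (7.91%) and 1597 were lower (15.5%) in the cGAMP libraries, at a Benjamini-Hochberg adjusted p under 0.05 in limma. Most decreases were small: 343 of the increases and 308 of the decreases reached 2-fold, and 64 and 16 reached 8-fold. The median log2 fold change over all genes tested was -0.11. Counts in the gene lists below are to be read beside these shares of 7.91% and 15.5% and this median. Genes called higher by at least 2-fold together took 35051 and 26857 CPM of the PBS libraries and 91004 and 97334 CPM of the cGAMP libraries. The split depended on the scaling, since median-of-ratios scaling between libraries gave 1077 higher and 1036 lower genes with a median of -0.01. It also depended on the PBS libraries: without PBS 2 there were 507 and 658 calls, and without PBS 1 there were 626 and 883. Thinning every cell to 2000 UMIs left 565 higher and 781 lower genes. Cells came from 2 mice per group, but the sources do not say that each library is 1 mouse, so the p-values measure only the spread between these libraries.

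**Figure D1:**
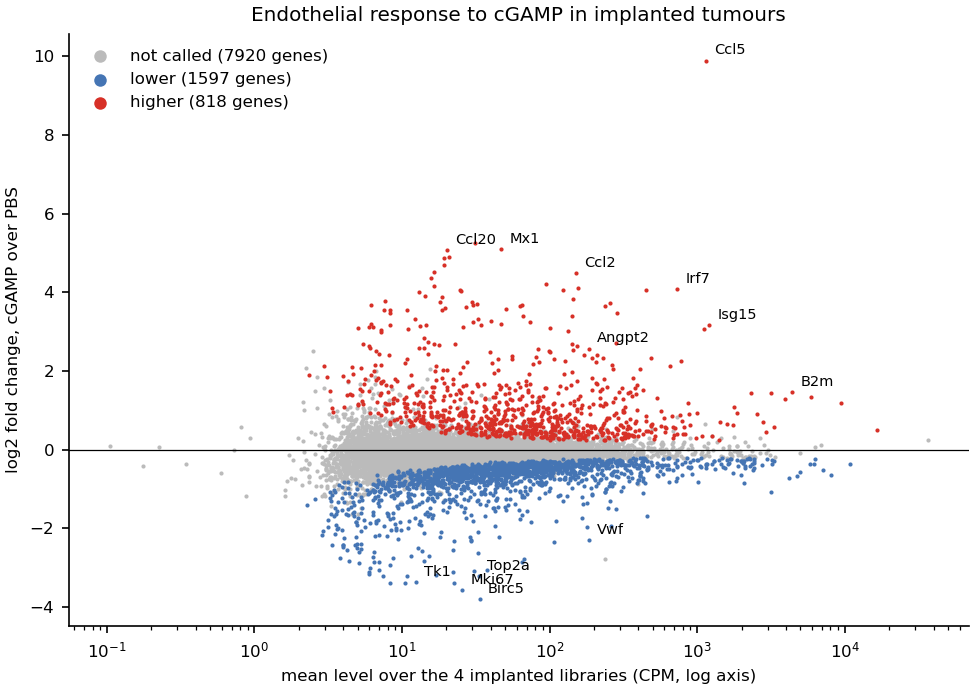
Each point is 1 of the 10335 genes tested; the x axis is the mean level over the 4 implanted libraries (CPM, log axis) and the y axis the log2 fold change of cGAMP over PBS. Red marks the 818 genes called higher and blue the 1597 called lower; Ccl5, at 9.89, lies far above all others, and the named genes at the bottom are mitosis genes.

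Ccl5, a chemokine for T cells and monocytes, had the largest increase. It was 2.85 and 0.524 CPM in the PBS libraries and 2403 and 2201 CPM in the cGAMP libraries, which is 9.89 ± 0.39 (SE) as a log2 fold change, with an adjusted p of 4.96e-07. The cGAMP libraries stood above the PBS libraries by more than the spread within either group, and the change was 9.79 without ECs that held 3 or more lymphatic or immune markers. Ccl5 lies on chromosome 11 from 83525778 to 83530518, on the minus strand (GRCm38, the same sequence as mm10).

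The next largest increases were genes of the interferon response. Trim30d, a member of the TRIM30 family, was 0.979 and 0.321 CPM with PBS and 55.9 and 67.4 CPM with cGAMP (log2 5.27 ± 0.27, adjusted p = 2.98e-06). Mx1, a dynamin-like GTPase that blocks viral replication, was 1.81 and 1.58 CPM against 81.4 and 104 CPM (log2 5.11 ± 0.20, adjusted p = 4.96e-07). Oas3, which makes the 2-5A that activates RNase L, was 0.934 and 0.0855 CPM against 27.8 and 37.3 CPM (log2 4.52 ± 0.36, adjusted p = 2.04e-05). All 3 were near 0 with PBS and raised to a like level in both cGAMP libraries. Ifi209, of the Ifi200 family of DNA sensors, rose by 4.90 on the log2 scale, Ifit1bl1, of the IFIT family, by 4.69, and Ms4a4c by 4.88. Ifi209, Trim30d and other members of these families have near copies in the genome, so their levels are uncertain. At a pseudocount of 5 CPM in place of 1 CPM the log2 changes of Ifi209, Ms4a4c, Ifit1bl1, Oas3, Apod and Ccl20 fell to between 2.69 and 3.09, and all stayed called.

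Ccl20, Ccl2 and Apod were also among the 10 largest increases, with Ccl20 at 5.07 on the log2 scale just below Mx1. Ccl20, a chemokine for CCR6+ cells, had no UMI in the 2005 PBS ECs and reached 16.4 and 63.7 CPM in the cGAMP libraries, at least 338-fold higher when 3 UMIs over the PBS group are taken as the floor (adjusted p = 0.00417). Without ECs that held 3 or more lymphatic or immune markers, Ccl20 was still at 0 with PBS and at 4.62 and 18.1 CPM with cGAMP, and it fell under the filter on low values. Ccl2, which draws monocytes, was 11.5 and 11 CPM with PBS and 380 and 201 CPM with cGAMP (log2 4.50 ± 0.40, adjusted p = 4.25e-05). Apod, a secreted lipid carrier, was 0.665 and 0.396 CPM against 33.1 and 28.6 CPM (log2 4.38 ± 0.27, adjusted p = 5.78e-06), and its change was 2.79 without those lymphatic and immune ECs. The part of such cells in the Ccl20 and Apod levels was not tested further.

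**Figure D2:**
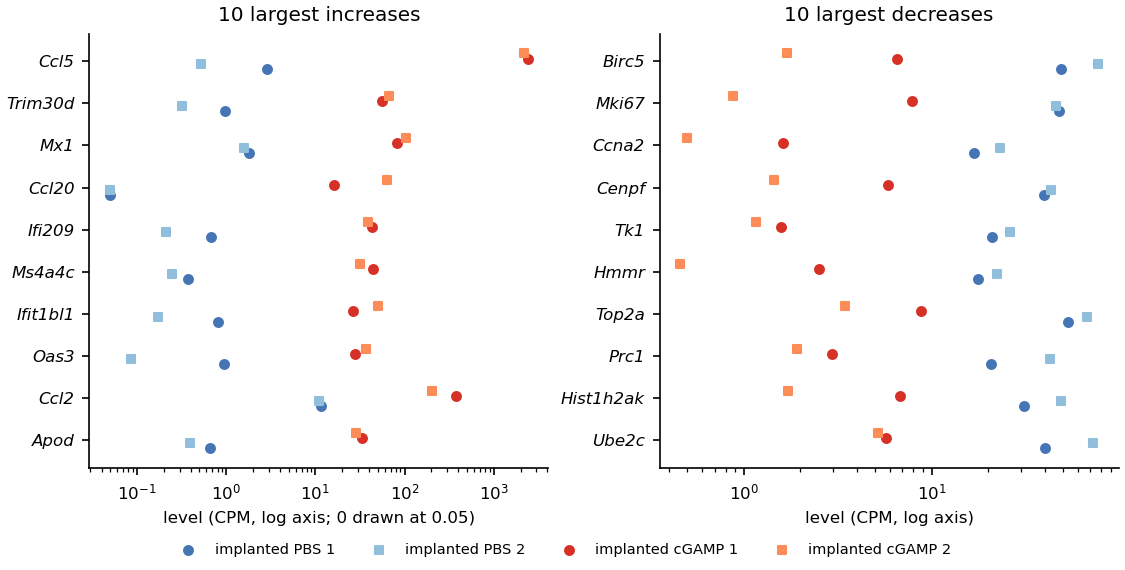
Level of the 10 genes with the largest increase (left) and the 10 with the largest decrease (right), 1 point per implanted library, on log axes in CPM; values of 0 are drawn at 0.05. In every row both cGAMP points lie on the same side of both PBS points, which the choice of these genes required. Ccl20 is at 0 in both PBS libraries.

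The largest decreases were in genes of dividing cells. Birc5 (survivin, a subunit of the chromosomal passenger complex) was 49.1 and 77.0 CPM with PBS and 6.55 and 1.69 CPM with cGAMP, a log2 change of -3.79 ± 0.52 (adjusted p = 0.000686). Mki67, which coats mitotic chromosomes, was 48.0 and 46.0 CPM against 7.82 and 0.871 CPM (log2 -3.56 ± 0.56, adjusted p = 0.00143). Top2a, the topoisomerase that untangles sister chromatids, was 53.6 and 67.0 CPM against 8.76 and 3.45 CPM (log2 -3.21 ± 0.33, adjusted p = 0.000114). In these genes both PBS libraries were high, and cGAMP 2 was lower than cGAMP 1. Cyclin A2 (Ccna2), the kinetochore gene Cenpf, thymidine kinase (Tk1), Hmmr, the midzone protein Prc1, Hist1h2ak and the mitotic ubiquitin enzyme Ube2c fell by 3.09 to 3.39 on the log2 scale. At a pseudocount of 5 CPM the changes of Ccna2, Tk1 and Hmmr were -2.04, -2.16 and -1.96, all still called. Without PBS 2 the calls of Hist1h2ak and Ube2c were lost (adjusted p = 0.0572 and 0.0871), and Ube2c was also lost with low genes kept (adjusted p = 0.0624).

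The sequences upstream of the first 3 genes in each direction that had an entry in the RefSeq promoter table are shown, since genes of each set moved together. Each is the 250 bases before the gene's start in GRCm38.p6, 5′ to 3′ on the gene's strand, and 15 of the 20 genes above had an entry. Capitals mark matches, on either strand, to the interferon-stimulated response element ISRE (GAAA, any 2 bases, then GAAA), the NF-kB consensus, the cell cycle element CHR (TTTGAA) and the CCAAT box (CCAAT).
Trim30d, chr7:104507850-104508099, minus strand: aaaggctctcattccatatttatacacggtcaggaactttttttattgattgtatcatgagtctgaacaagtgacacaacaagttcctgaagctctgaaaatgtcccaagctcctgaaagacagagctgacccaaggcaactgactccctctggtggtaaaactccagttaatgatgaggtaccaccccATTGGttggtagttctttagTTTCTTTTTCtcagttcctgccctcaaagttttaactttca
Ccl20, chr1:83116516-83116765, plus strand: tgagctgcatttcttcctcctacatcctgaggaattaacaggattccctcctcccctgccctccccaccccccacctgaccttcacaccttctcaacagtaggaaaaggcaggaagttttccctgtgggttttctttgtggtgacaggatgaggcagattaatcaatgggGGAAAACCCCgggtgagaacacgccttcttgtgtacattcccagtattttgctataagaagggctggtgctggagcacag
Ifi209, chr1:173630609-173630858, plus strand: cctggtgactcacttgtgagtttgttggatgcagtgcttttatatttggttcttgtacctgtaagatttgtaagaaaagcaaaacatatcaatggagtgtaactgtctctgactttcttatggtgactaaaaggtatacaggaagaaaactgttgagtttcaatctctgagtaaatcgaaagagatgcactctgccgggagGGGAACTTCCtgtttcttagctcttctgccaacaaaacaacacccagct
Birc5, chr11:117848987-117849236, plus strand: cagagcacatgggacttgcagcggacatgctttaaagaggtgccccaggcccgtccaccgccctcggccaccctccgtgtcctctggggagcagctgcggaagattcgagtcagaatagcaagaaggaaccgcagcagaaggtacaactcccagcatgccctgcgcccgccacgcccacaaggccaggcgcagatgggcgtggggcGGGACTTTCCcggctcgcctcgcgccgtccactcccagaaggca
Mki67, chr7:135716380-135716629, minus strand: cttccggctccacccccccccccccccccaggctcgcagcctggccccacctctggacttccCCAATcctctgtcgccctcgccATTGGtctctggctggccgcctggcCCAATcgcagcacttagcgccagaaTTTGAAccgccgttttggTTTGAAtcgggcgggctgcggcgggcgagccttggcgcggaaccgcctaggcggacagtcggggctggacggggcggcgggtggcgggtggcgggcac
Cenpf, chr1:189688087-189688336, minus strand: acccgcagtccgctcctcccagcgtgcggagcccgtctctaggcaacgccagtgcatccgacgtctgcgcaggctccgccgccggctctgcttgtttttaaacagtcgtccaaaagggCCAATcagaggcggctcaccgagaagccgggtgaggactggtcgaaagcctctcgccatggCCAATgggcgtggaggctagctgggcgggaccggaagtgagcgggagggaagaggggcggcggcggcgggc

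Trim30d had an ISRE match that began 41 bases before the start, on the opposite strand, and a CCAAT box 61 bases before it. Ccl20 and Ifi209 each had 1 match to the NF-kB consensus, 80 and 49 bases before the start, and Birc5 had 1 at 44 bases. Mki67 had 2 CHR matches, at 116 and 98 bases, downstream of 3 CCAAT boxes, and Cenpf had 2 CCAAT boxes. Over all 32851 promoters of the table the ISRE was matched in 2.98%, the NF-kB consensus in 7.25%, the CHR in 15.99% and the CCAAT box in 33.8%. Of the 16 tested antiviral effector genes with an entry, 7 (43.8%) held an ISRE and 6 (37.5%) the NF-kB consensus. A CCAAT box was in 7 (43.8%) of these 16 and a CHR in 2 (12.5%). Of the 13 tested mitosis genes with an entry, 6 (46.2%) held a CHR and 12 (92.3%) a CCAAT box. The NF-kB consensus was in 2 (15.4%) of these 13 and the ISRE in 0. These are matches of letters and not measured binding sites.

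Among genes of STING signalling and nucleic acid sensing, 10 of 14 tested rose and none fell, with a median log2 change of 1.05. Tmem173, which encodes STING itself, was 109 and 84.0 CPM with PBS and 118 and 128 CPM with cGAMP, and did not pass the test (log2 0.36 ± 0.13, adjusted p = 0.077), with 0.54 without PBS 1 (adjusted p = 0.0281) and 0.18 without PBS 2 (adjusted p = 0.477). Tbk1, the kinase that STING recruits, rose from 35.9 and 33.4 CPM to 55.1 and 56.5 CPM (log2 0.67 ± 0.10, adjusted p = 0.00115), but was not called in ECs thinned to 2000 UMIs (adjusted p = 0.0902). The sensor Zbp1, chosen after its values were seen, went from 91.1 and 47.1 CPM to 340 and 359 CPM (log2 2.40 ± 0.23, adjusted p = 7.93e-05). The RNA sensors Ddx58, Ifih1 and Dhx58 were also among the 10, whereas Mb21d1 (cGAS), Irf3 and Mavs were not called.

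Of 17 tested genes of interferon receptors, JAK-STAT signalling and its feedback, 9 rose and 2 fell. Irf7, the amplifier of type I interferon, was 99.3 and 64.8 CPM with PBS and 1254 and 1523 CPM with cGAMP (log2 4.09 ± 0.18, adjusted p = 8.78e-07). Its cGAMP levels were far above its PBS levels, and PBS 1 was above PBS 2. The 2 that fell were the receptor genes Ifnar1 and Ifngr1, named after their values were seen, and neither was called without PBS 2. Ifnb1 had 1 UMI in all the ECs of the 4 libraries, in cGAMP 1, so its change was not detectable at this depth.

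All 19 tested antiviral effector genes rose, with a median log2 change of 3.17 and a range from 1.23 to 5.11. Isg15, the ubiquitin-like modifier, was 299.7 and 189 CPM with PBS and 2053 and 2260 CPM with cGAMP (log2 3.17 ± 0.18, adjusted p = 4.27e-06). Ifit3, which binds viral RNA within the IFIT complex, was 45.4 and 24.9 CPM against 413 and 467 CPM (log2 3.67 ± 0.22, adjusted p = 4.62e-06). The list summed to 5043 and 4070 CPM with PBS and to 17156 and 19073 CPM with cGAMP. All 19 stayed called under each alternative setting tried.

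This response was spread over the ECs. At 2000 UMIs per cell, the median EC held 8 and 6 UMIs of the list in the PBS libraries and 32 and 36 in the cGAMP libraries, and the lowest 10% of ECs in the cGAMP libraries held up to 20 and 18. ECs with at least 3 of the genes made up 47.0% (95% Wilson interval 43.7 to 50.3%) and 33.6% (30.7 to 36.6%) with PBS, against 99.0% (98.0 to 99.5%) and 98.6% (97.1 to 99.3%) with cGAMP. Without thinning the shares were 85.6% and 78.9% with PBS and 98.9% and 100% with cGAMP. Cells that the EC rule left out gave 45.2% and 38.1% with PBS and 98.8% and 98.8% with cGAMP at the same depth. The share was thus as high in cells outside the rule, which had also been sorted as CD31+. Cells without a Pecam1 UMI numbered 99 and 93 with PBS and 496 and 50 with cGAMP before thinning. The left-out cells can thus include ECs, and their share does not show the response of other cell types. The part of free RNA in the share was not tested. Intervals cover counting error only, and with 2 libraries against 2 no permutation test of shares can go below an exact two-sided p of 0.333.

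**Figure D3:**
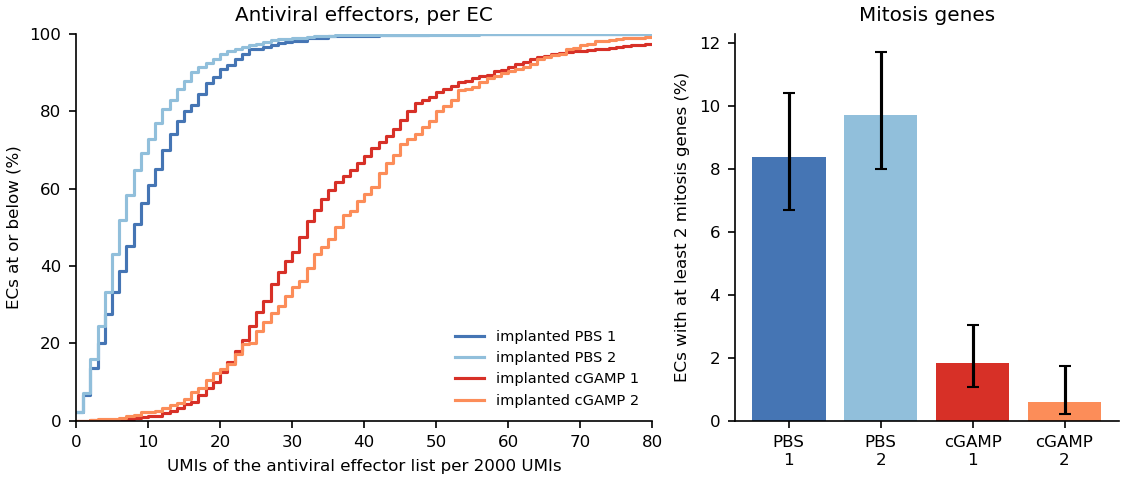
Left, the share of ECs (%) at or below a number of antiviral effector UMIs, each cell thinned to 2000 UMIs, 1 line per implanted library. The median lies at 8 and 6 UMIs with PBS and at 32 and 36 with cGAMP. Right, bars give the share of ECs (%) with at least 2 of 15 mitosis genes with 95% Wilson intervals, 8.37% and 9.71% with PBS and 1.83% and 0.600% with cGAMP.

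Interferon-inducible GTPases, which attack the vacuoles of intracellular pathogens, rose less than the antiviral effectors. Of 15 tested, 11 rose and none fell, with a median log2 change of 1.27. Without PBS 2 the median was 0.77 with 10 called, and without PBS 1 it was 1.69 with 14 called. Gbp2 was 746 and 337 CPM with PBS and 1059 and 761 CPM with cGAMP and did not pass the test (log2 0.84 ± 0.30, adjusted p = 0.0674), a value that rested on the PBS libraries. It was 1.41 without PBS 1 (adjusted p = 0.0016) and 0.27 without PBS 2 (adjusted p = 0.458), and Gbp2 passed the test after thinning (adjusted p = 0.0158). Irgm1 was 217 and 117 CPM against 363 and 379 CPM (log2 1.21 ± 0.22, adjusted p = 0.00297), and its change was 0.77 without PBS 2. PBS 1 held about the level of the lower cGAMP library for Gbp2, and PBS 2 lay well below.

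Genes of MHC class I presentation rose almost as a whole, 15 of 16 tested, with a median log2 change of 1.19. B2m, the invariant light chain, was 2648 and 2090 CPM with PBS and 6187 and 6761 CPM with cGAMP (log2 1.46 ± 0.12, adjusted p = 2.68e-05). Tap1, which carries peptides into the endoplasmic reticulum, was 197 and 101 CPM against 335 and 313 CPM (log2 1.19 ± 0.23, adjusted p = 0.00453), and its change was 0.71 without PBS 2. The list took 14697 and 11682 CPM of the PBS libraries and 29991 and 33190 CPM of the cGAMP libraries, with no overlap. Members of the H2 family are near copies of each other, so their single levels are uncertain.

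MHC class II and checkpoint genes did not follow. Of 8 tested, 2 rose, Cd274 and, named after its values were seen, Cd40. H2-Aa, a class II chain, was 92.6 and 39.1 CPM with PBS and 116 and 67.1 CPM with cGAMP, with overlap between the groups (log2 0.54 ± 0.38, adjusted p = 0.345), and the change was -0.07 without PBS 2 (adjusted p = 0.933). Cd274, which encodes the T cell inhibitor PD-L1, rose from 38.2 and 17.2 CPM to 133 and 136 CPM (log2 2.35 ± 0.28, adjusted p = 0.000252). The count was 5 without PBS 1, and 1 without PBS 2 or without cGAMP 1.

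Chemokines rose in 10 of 13 tested, with a median log2 change of 2.13, and included Ccl5, Ccl20 and Ccl2. Cxcl10, a chemokine for CXCR3+ T cells, was 410 and 138 CPM with PBS and 1031 and 1053 CPM with cGAMP (log2 2.13 ± 0.41, adjusted p = 0.00443), and its change was 1.34 without PBS 2. The stromal chemokine Cxcl12 was the only one called lower, and it was named after its values were seen. Without PBS 2 the counts were 5 higher and none lower, and without a filter on low values 6 and none. Ccl21a, also a lymphatic marker, was among the 10.

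Of 8 tested cytokines and growth factors for leukocytes, 5 rose and none fell. Csf1, the growth factor of macrophages, went from 29.6 and 22.7 CPM to 53.7 and 63.6 CPM (log2 1.14 ± 0.19, adjusted p = 0.00242). Il6 was 48.3 and 35.6 CPM with PBS and 79.1 and 52.7 CPM with cGAMP and did not pass the test (log2 0.63 ± 0.22, adjusted p = 0.0654), and the value moved with the libraries and cells used. It was 0.91 without cGAMP 2 (adjusted p = 0.017), but 0.34 without cGAMP 1 (adjusted p = 0.325), 0.41 without PBS 2 (adjusted p = 0.366) and 0.37 under the strict cell rule (adjusted p = 0.361). Csf3, the granulocyte growth factor, chosen after its values were seen, went from 5.34 and 6.02 CPM to 27.9 and 28.3 CPM (log2 2.13 ± 0.34, adjusted p = 0.00154). The other 3 that rose were Il15, Tnfsf10 and Tnf, also named after their values were seen. In all deposited cells, without the EC rule, 8 of 9 tested were called higher. Without ECs that held 3 or more lymphatic or immune markers, 4 of 6 tested were called higher. The part of immune cells in the levels of Tnf and the other cytokines was not tested.

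**Figure D4:**
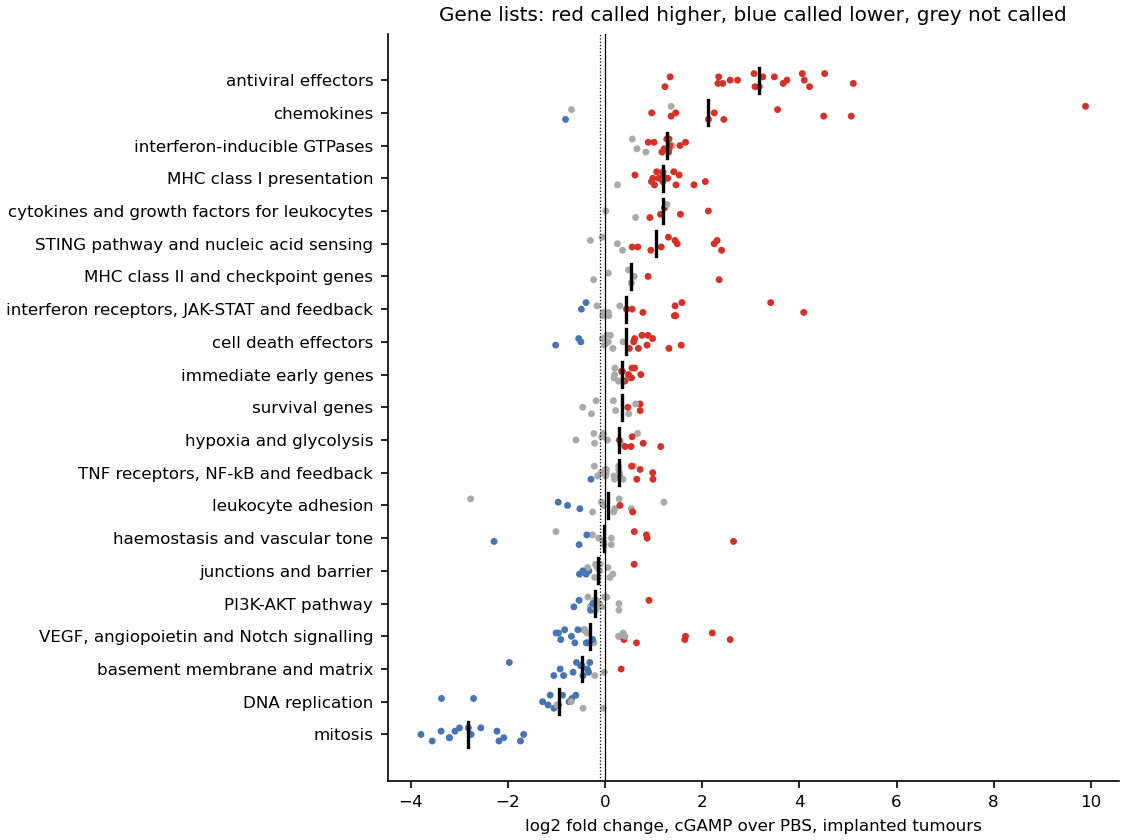
Log2 fold change of cGAMP over PBS for each tested member of 21 gene lists, ordered by median; red points are called higher, blue lower and grey not called. Black bars mark list medians, which run from 3.17 for antiviral effectors to -2.82 for mitosis, and the dotted line marks the median over all genes tested, -0.11.

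Changes in the TNF and NF-kB list were small and mostly upward. Of 21 tested, 6 rose (28.6%, against 7.91% of all genes) and 1 fell (4.76%, against 15.5%). The other 14 did not pass the test, and the median log2 change was 0.28, against -0.11 over all genes. Both cGAMP libraries lay above both PBS libraries for 13 of the 21 and below for 4, against 20.6% and 42.0% of all genes. Tnfrsf1a, the main TNF receptor, was 255 and 247 CPM with PBS and 192 and 218 CPM with cGAMP (log2 -0.29 ± 0.08, adjusted p = 0.0253). Its call was lost without PBS 1, PBS 2 or cGAMP 1 (adjusted p = 0.123, 0.0882 and 0.131) and under median-of-ratios scaling (adjusted p = 0.121). Nfkbia, the inhibitor that NF-kB induces, went from 590 and 645 CPM to 727 and 791 CPM (log2 0.30 ± 0.08, adjusted p = 0.0198), a call lost without PBS 1 or cGAMP 2 (adjusted p = 0.137 and 0.094) and without ECs with mitosis genes (adjusted p = 0.149). The other 5 that rose were the feedback genes Nfkbie, Tnfaip3, Tnip1, Birc2 and Birc3, named after their values were seen, and the count of increases was 2 without PBS 2, without cGAMP 2, after thinning or without a filter on low values.

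Cell death effectors rose in 10 of 20 tested and fell in 3, namely Bmf, Bad and Fas, named after their values were seen. Casp8, the initiator caspase of death receptors, went from 113 and 108 CPM to 182 and 174 CPM (log2 0.68 ± 0.08, adjusted p = 0.000229). Bid, which links Casp8 to mitochondria, went from 9.45 and 5.34 CPM to 15.3 and 12.5 CPM (log2 0.86 ± 0.27, adjusted p = 0.0431). The Bid call was lost without PBS 2, cGAMP 1 or cGAMP 2 (adjusted p = 0.325, 0.157 and 0.0609) and after thinning (adjusted p = 0.23). Mlkl, the pore former of necroptosis, chosen after its values were seen, went from 28.7 and 23.8 CPM to 75.7 and 83.4 CPM (log2 1.57 ± 0.12, adjusted p = 2.13e-05). Pmaip1 (Noxa), chosen likewise, went from 5.14 and 4.04 CPM to 14.6 and 11.3 CPM (log2 1.31 ± 0.24, adjusted p = 0.0033). Casp1, Casp4 and Gsdmd of pyroptosis also rose, while Casp9 and Bax did not pass the test. The 3 decreases were 1 without PBS 1, PBS 2 or cGAMP 2.

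Survival genes rose in 3 of 10 tested, Cflar, Hspa5 and Hspb1, named after their values were seen. Bcl2l1 (BCL-XL) was 24.8 and 27.8 CPM with PBS and 32.6 and 42.3 CPM with cGAMP (log2 0.48 ± 0.19, adjusted p = 0.0935). Mcl1 was 328 and 360 CPM against 402 and 396 CPM (log2 0.22 ± 0.08, adjusted p = 0.063). Mcl1 passed the test under median-of-ratios scaling and in all deposited cells (adjusted p = 0.0155 and 0.0309). In ECs with at least 2000 UMIs and from summed UMIs Mcl1 passed (adjusted p = 0.0397 and 0.0151), as did Bcl2l1 (adjusted p = 0.015 and 0.00696). After thinning Mcl1 was at 0.069 (adjusted p = 0.737). Bcl2l1 passed the test without cGAMP 1 (adjusted p = 0.0486), where 2 of the survival genes also fell, and was at 0.30 without cGAMP 2 (adjusted p = 0.36). In the PI3K-AKT pathway 1 of 20 tested genes rose and 4 fell (Pik3r3, Foxo1, Gsk3b and Insr), the latter named after their values were seen. Akt1 was 125 and 146 CPM with PBS and 115 and 110 CPM with cGAMP (log2 -0.26 ± 0.09, adjusted p = 0.0663), and Pik3ca was 46.6 and 47.0 CPM against 36.3 and 39.2 CPM (log2 -0.30 ± 0.11, adjusted p = 0.0795). Akt1 passed the test without PBS 1 (adjusted p = 0.0376) and was at -0.15 without PBS 2 (adjusted p = 0.419). Shares of 5% higher and 20% lower in the PI3K-AKT pathway lay near those of all genes tested, and the 4 decreases were 1 under median-of-ratios scaling and without PBS 2 or cGAMP 1.

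All 15 mitosis genes fell, with a median log2 change of -2.82, which was -1.76 at a pseudocount of 5 CPM. They summed to 417 and 559 CPM with PBS and to 80.5 and 46.3 CPM with cGAMP. At 2000 UMIs per cell, ECs with at least 2 of these genes made up 8.37% (95% Wilson interval 6.70 to 10.4%) and 9.71% (8.01 to 11.7%) with PBS, against 1.83% (1.09 to 3.04%) and 0.600% (0.204 to 1.75%) with cGAMP. Both cGAMP shares lay below both PBS shares. The intervals cover counting error of cells only, and the difference between 2 libraries a side was not tested. Without thinning the shares were 18.4% and 22.6% with PBS and 6.06% and 7.42% with cGAMP.

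When ECs with at least 2 mitosis genes were left out, 2 of the 15 genes still passed the filter on low values and neither was called (median -0.07), which follows in part from how those cells were chosen. For Top2a this ended the call (adjusted p = 0.833). In the ECs that held such genes, list UMIs per 2000 UMIs averaged 8.81 and 9.64 with PBS (72 and 96 cells) and 5.14 and 4 with cGAMP (14 and 3 cells). These cells also carried the antiviral list, at 6.49 and 6.55 UMIs with PBS and 37.6 and 58.3 with cGAMP. Without PBS 2, 8 of the 13 mitosis genes that could then be tested were called.

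DNA replication genes fell in 11 of 15 tested and rose in none, with a median log2 change of -0.96. Mcm2, of the replicative helicase, was 13.4 and 17.9 CPM with PBS and 5.58 and 7.08 CPM with cGAMP (log2 -1.18 ± 0.27, adjusted p = 0.0113). Pcna, the sliding clamp, was 40.6 and 47.0 CPM against 44.4 and 40.9 CPM, with overlap (log2 -0.03 ± 0.13, adjusted p = 0.887). The Mcm2 call was lost without PBS 2 (adjusted p = 0.114), after thinning (adjusted p = 0.263), with low genes kept (adjusted p = 0.0506) and without ECs with mitosis genes (adjusted p = 0.235). The count of 11 was 5 without PBS 2, 7 after thinning, and 1 of the 11 then tested without ECs with mitosis genes.

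Genes of VEGF, angiopoietin and Notch signalling moved in both directions, with 6 of 24 tested higher (25%) and 11 lower (45.8%). Over all genes tested the shares were 7.91% and 15.5%. Angpt2, the Tie2 ligand released by activated ECs, was 64.5 and 42.0 CPM with PBS and 306 and 324 CPM with cGAMP, 5.92 times the PBS mean (log2 2.57 ± 0.18, adjusted p = 1.12e-05). The groups were apart by far more than the spread within either. Kdr, the main VEGF receptor, was 631 and 622 CPM against 430 and 531 CPM (log2 -0.39 ± 0.12, adjusted p = 0.0411), a call lost without PBS 1, PBS 2 or cGAMP 1 (adjusted p = 0.141, 0.14 and 0.202) and under median-of-ratios scaling (adjusted p = 0.125). Vegfa, chosen after its values were seen, went from 8.40 and 18.2 CPM to 39.9 and 41.8 CPM (log2 1.64 ± 0.33, adjusted p = 0.00561). Tek, which encodes the receptor Tie2, chosen likewise, went from 137 and 137 CPM to 97.1 and 105 CPM (log2 -0.43 ± 0.08, adjusted p = 0.00443). Median-of-ratios scaling gave 9 higher and 7 lower, and without PBS 1 or PBS 2 the decreases were 7 and 6.

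Leukocyte adhesion genes showed no common direction. Of 14 tested, 2 were higher (F11r and Mcam, 14.3%) and 3 lower (Sele, Selp and Cd34, 21.4%), named after their values were seen. These shares lay near the 7.91% and 15.5% of all genes tested. Icam1 was 166 and 158 CPM with PBS and 202 and 165 CPM with cGAMP, with overlap only at the margin of the lower cGAMP library (log2 0.17 ± 0.10, adjusted p = 0.268). Vcam1 was 264 and 138 CPM against 267 and 290 CPM (log2 0.54 ± 0.24, adjusted p = 0.136). Vcam1 passed the test without PBS 1 (adjusted p = 0.00325) but was at 0.076 without PBS 2 (adjusted p = 0.824). Icam1 was at 0.32 without cGAMP 2 (adjusted p = 0.048) and at 0.024 without cGAMP 1 (adjusted p = 0.895). Selp (P-selectin), chosen after its values were seen, fell from 265 and 231 CPM to 173 and 91.7 CPM (log2 -0.97 ± 0.22, adjusted p = 0.0104). The Selp call was lost without PBS 1 (adjusted p = 0.0657) and when low genes were kept (adjusted p = 0.0588), and its change was -0.51 without cGAMP 2.

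Vwf, which is stored with P-selectin in the Weibel-Palade bodies of ECs, fell to 0.211 of the PBS mean. It was 314 and 292 CPM with PBS and 82.8 and 45.3 CPM with cGAMP (log2 -2.29 ± 0.22, adjusted p = 7.91e-05), and it was chosen after its values were seen. Its change was -2.26 without ECs that held lymphatic or immune markers. Within the list of haemostasis and vascular tone 4 of 14 tested genes rose (28.6%, Plat, Plaur and Procr among them). In that list 3 fell (21.4%, Tfpi, Vwf and Ace), all named after their values were seen. Over all genes tested the shares were 7.91% and 15.5%. Thbd (thrombomodulin) was 123 and 150 CPM with PBS and 108 and 166 CPM with cGAMP, with overlap (log2 -0.02 ± 0.18, adjusted p = 0.945). The 3 decreases were 1 without PBS 2 or cGAMP 1.

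The genes of junctions and barrier stayed near the level of all genes, with 1 of 15 tested higher (S1pr1) and 4 lower (Tjp1, Ctnnb1, Cav1 and Cavin1), named after their values were seen. Cdh5 (VE-cadherin) was 1103 and 1038 CPM with PBS and 1063 and 1235 CPM with cGAMP (log2 0.10 ± 0.08, adjusted p = 0.442). Cldn5 (claudin-5) was 812 and 708 CPM against 748 and 958 CPM (log2 0.16 ± 0.12, adjusted p = 0.379). Both overlapped between the groups, and the count of decreases was 7 without cGAMP 2.

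Basement membrane and matrix genes fell in 13 of 16 tested and rose in 1 (Nid1, named after its values were seen), with a median log2 change of -0.49. Col4a1, the main basement membrane collagen, was 2958 and 2682 CPM with PBS and 2052 and 2048 CPM with cGAMP (log2 -0.46 ± 0.08, adjusted p = 0.00362). Lama4, of endothelial laminin, was 248 and 199.8 CPM against 183 and 168 CPM (log2 -0.34 ± 0.10, adjusted p = 0.0368). The Lama4 call was lost without PBS 1 or cGAMP 2 (adjusted p = 0.266 and 0.139) and under median-of-ratios scaling (adjusted p = 0.131). Eln (elastin), chosen after its values were seen, fell from 270 and 302 CPM to 76.4 and 67.8 CPM (log2 -1.97 ± 0.11, adjusted p = 4.62e-06). The count of decreases was 8 without PBS 1 and without a filter on low values, and Nid1 was not called without PBS 2 or cGAMP 2.

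Immediate early genes, which stress and tissue dissociation also raise, were higher in 9 of 16 tested and lower in none, with a median log2 change of 0.36. Fos was 843 and 1387 CPM with PBS and 1270 and 1524 CPM with cGAMP (log2 0.36 ± 0.19, adjusted p = 0.192), and Egr1 was 448 and 705 CPM against 660.3 and 919 CPM (log2 0.47 ± 0.19, adjusted p = 0.108). PBS 1 was the lowest library for both, and the groups overlapped. Without PBS 1 the changes were 0.0039 for Fos and 0.14 for Egr1 (adjusted p = 0.99 and 0.626). Without PBS 2 both passed the test (adjusted p = 0.00621 and 0.0149), as Egr1 did without cGAMP 1 (adjusted p = 0.0294). The count was 1 without PBS 1, 5 without cGAMP 2, 3 without a filter on low values and 2 without ECs with mitosis genes. Of 15 tested genes of hypoxia and glycolysis, 6 rose and none fell. Slc2a1, the glucose transporter GLUT1, went from 48.5 and 36.9 CPM to 89.5 and 100.2 CPM (log2 1.14 ± 0.18, adjusted p = 0.00139), and Ldha was 446 and 460 CPM against 407 and 373 CPM (log2 -0.22 ± 0.09, adjusted p = 0.103). Without PBS 2 this list had 3 higher and 1 lower.

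The second question was where the response in implanted tumours differed from that in spontaneous tumours, which was tested as the difference of the 2 responses. Of 10335 genes, 25 responded more in implanted tumours (0.242%) and 57 responded less (0.552%), where less means a smaller increase or a larger decrease. This count was fragile, with 0 and 0 calls without a filter on low values, 0 and 9 without spontaneous PBS 2, 0 and 2 without spontaneous cGAMP 2, 2 and 11 without spontaneous cGAMP 1, and 4 and 6 without spontaneous PBS 1. It was 5 and 35 without implanted PBS 1, 18 and 86 without implanted PBS 2, and 52 and 75 without implanted cGAMP 2. In that unfiltered fit of 18510 genes, 1892 had an unadjusted p under 0.05, against 1333 in the filtered fit.

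Genes with a smaller response in implanted tumours included many of the interferon lists, whose summed levels with PBS were higher there. Of the 57, 34 rose in the implanted tumours as well, 12 fell there and 11 were not called. They included 10 of the 15 interferon-inducible GTPases, 7 of the 16 MHC class I genes, 5 of the 8 MHC class II and checkpoint genes and 5 of the 19 antiviral effectors. The GTPases summed to 466 and 469 CPM in the spontaneous PBS libraries and to 3767 and 1992 CPM in the implanted PBS libraries, against 3858 and 3976 CPM and 5871 and 5154 CPM after cGAMP. For all 15 of them both implanted PBS libraries lay above both spontaneous PBS libraries, which was so for 22.2% of all genes tested, and after cGAMP it was again so for all 15, against 21.7% of all genes.

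Cxcl9, a chemokine for CXCR3+ T cells that interferon gamma induces, had the largest such difference, -4.55 ± 0.46 on the log2 scale (adjusted p = 0.00495). It was 30.7 and 17 CPM in the spontaneous PBS and 1627 and 1435 CPM in the spontaneous cGAMP libraries. In implanted tumours it was 1774 and 823 CPM with PBS and 2967 and 3694 CPM with cGAMP (log2 1.45 ± 0.32, adjusted p = 0.0092), a call lost without PBS 2 (adjusted p = 0.0611) and when low genes were kept (adjusted p = 0.0592). The implanted PBS level was thus near the spontaneous cGAMP level. The difference was not called without spontaneous cGAMP 2 (adjusted p = 0.0848).

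Ubd, a ubiquitin-like modifier of the interferon gamma and TNF response, was 6.99 and 4.44 CPM and 32.5 and 55.7 CPM in the spontaneous PBS and cGAMP libraries, and 649 and 349 CPM and 440 and 156 CPM in the implanted ones (difference -3.59 ± 0.63, adjusted p = 0.0375). Serpina3g was 4.77 and 6.79 CPM and 65.0 and 53.3 CPM in spontaneous tumours, and 281 and 95.1 CPM and 143 and 109 CPM in implanted tumours (difference -3.54 ± 0.54, adjusted p = 0.0206). Neither gene passed the test within implanted tumours (adjusted p = 0.197 and 0.515). Ubd was called lower without cGAMP 1 (log2 -1.61, adjusted p = 0.0121) and was at -0.11 without cGAMP 2 (adjusted p = 0.863). Serpina3g was called lower without PBS 2 (log2 -1.16, adjusted p = 0.0106) and turned to 0.39 without PBS 1 (adjusted p = 0.301). H2-Aa was 3.18 and 1.57 CPM and 45.2 and 56.0 CPM in spontaneous tumours (difference -3.43 ± 0.54, adjusted p = 0.0207). F830016B08Rik was 1.63 and 1.33 CPM and 51.4 and 65.2 CPM in spontaneous tumours, and 36.6 and 25.3 CPM and 73.4 and 79.4 CPM in implanted tumours (difference -3.27 ± 0.27, adjusted p = 0.00155). F830016B08Rik kept its call whichever library was left out and lost it when low genes were kept (adjusted p = 0.0781), and at a pseudocount of 5 CPM its difference was -2.08 (adjusted p = 0.0111), whereas the calls of Ubd, Serpina3g and H2-Aa were each lost without any 1 of the 4 spontaneous libraries (adjusted p = 0.0572 to 0.232), and that of Ubd also without implanted PBS 1 (adjusted p = 0.119).

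**Figure D5:**
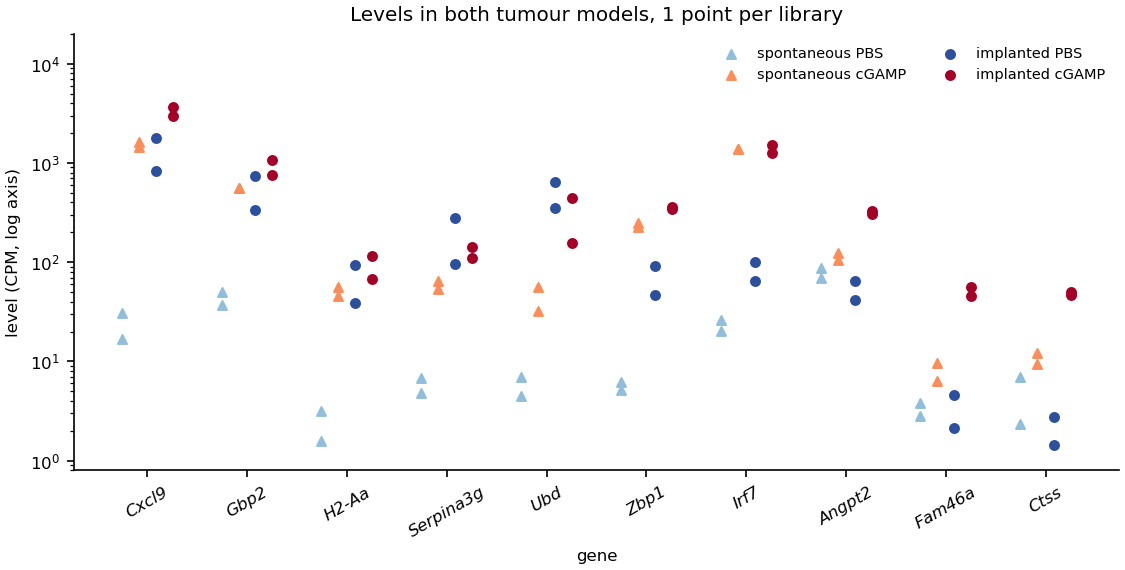
Level of 10 genes in all 8 libraries (CPM, log axis), 2 points per group, triangles for spontaneous and circles for implanted tumours, blue for PBS and red or orange for cGAMP. For Cxcl9 and Gbp2 implanted PBS points sit near the spontaneous cGAMP points, and Angpt2, Fam46a and Ctss are raised mainly in the implanted cGAMP libraries.

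Angpt2 responded more in implanted tumours. It was 69.6 and 86.9 CPM with PBS and 123 and 106 CPM with cGAMP in spontaneous tumours, next to 64.5 and 42.0 CPM and 306 and 324 CPM in implanted tumours (difference 2.03 ± 0.25, adjusted p = 0.0125). Fam46a was 3.82 and 2.84 CPM and 9.71 and 6.33 CPM in spontaneous tumours, and 4.55 and 2.13 CPM and 45.2 and 56.6 CPM in implanted tumours (difference 2.59 ± 0.43, adjusted p = 0.0329). Without single spontaneous libraries both calls could be lost: Angpt2 without PBS 2, cGAMP 1 or cGAMP 2 (adjusted p = 0.0547, 0.0529 and 0.116) and Fam46a without any of the 4 (adjusted p = 0.0674 to 0.201) or without implanted cGAMP 2 (adjusted p = 0.0553). Fam46a was also not called in all deposited cells, under the strict cell rule or after thinning (adjusted p = 0.167, 0.0994 and 0.194).

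Ccl20, Ctss and Col13a1 completed the set. Ccl20 was 3.62 and 30.9 CPM with PBS and 4.43 and 0 CPM with cGAMP in spontaneous tumours (difference 7.45 ± 1.36, adjusted p = 0.0389), and spontaneous PBS 2 was its highest spontaneous library. With libraries at 0 in 2 of the groups the value rests on the pseudocount, and at 5 CPM in place of 1 CPM it was 4.29 and not called (adjusted p = 0.0681). Ctss, the lysosomal protease cathepsin S of antigen-presenting cells, was 2.33 and 6.94 CPM and 12.2 and 9.51 CPM in spontaneous tumours, and 2.77 and 1.44 CPM and 50.1 and 46.9 CPM in implanted tumours (difference 2.83 ± 0.52, adjusted p = 0.0419). Ctss is also a gene of myeloid cells, which the CD45- gate should remove but whose markers were higher in the cGAMP libraries, and the part of such cells was not tested. It was 2.65 and 1.48 CPM and 34.6 and 40.9 CPM in implanted ECs without lymphatic or immune markers. The Ctss difference was 1.38 after thinning (adjusted p = 0.674), 1.19 in all deposited cells (adjusted p = 0.489) and 1.59 from summed UMIs (adjusted p = 0.187). Col13a1, a membrane collagen, was 49.9 and 79.7 CPM and 20.4 and 30.3 CPM in spontaneous tumours, and 45.4 and 55.5 CPM and 70.7 and 89.5 CPM in implanted tumours (difference 1.96 ± 0.33, adjusted p = 0.0329), where its own change did not pass the test (adjusted p = 0.0697) but did in some alternatives, such as after thinning (adjusted p = 0.0129). The Ccl20 call was lost without each of 7 libraries, all but implanted cGAMP 1 (adjusted p = 0.0504 to 0.223), the Ctss call without each of 7, all but spontaneous PBS 1 (adjusted p = 0.057 to 0.255), and the Col13a1 call without spontaneous PBS 2, cGAMP 1 or cGAMP 2 or implanted PBS 1 (adjusted p = 0.101 to 0.116).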

How the data were processed

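Single-cell libraries were made with the 10x Chromium 3' v3 kit from live CD45- CD31+ cells sorted by FACS. Per the study's methods and the submitters' processing notes, reads were aligned to mm10 with Cell Ranger 3.0.0 and read into Seurat 3.1.1. Per the same sources, cells with fewer than 500 genes or over 10% mitochondrial UMIs, and genes in fewer than 3 cells, were removed. The least number of cells per gene was nevertheless 0 in every deposited table. The deposited values are natural log values, made by the authors as ln of 1 plus UMIs times 10000 over the cell's total; they came back to whole UMIs, within 0.01 UMI, in 100% of cases. Deposited values are per cell, 8204 cells in 8 tables.

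Here, log values were reversed, scaled to CPM per cell and averaged over the ECs of each library, since cells are not replicates. The filter on low values kept genes that reached 5 CPM in 2 or more of the 8 libraries, and these were tested with limma 3.58.1 (R 4.3.3) on log2(CPM + 1) in 1 fit of the 4 groups, with 4 residual degrees of freedom and Benjamini-Hochberg adjustment. A log2 fold change on this scale understates changes of low genes. Doublets were not called; the EC rule removes cells with 2 or more markers of other cells. The scripts were tested on simulated data.

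Named genes were the 10 with the largest change in each direction (called, at least 10 CPM, no overlap between groups), the first 2 tested members of each of 21 lists, and the 5 with the largest difference of the responses in each direction (called, at least 10 CPM). The members, lists and tests were chosen with earlier results of these data known. Alternatives covered scaling, pseudocount, filter, cell rule, depth and summed UMIs. Others were a replicate block, a fit of only the implanted libraries, leaving out ECs with mitosis genes and leaving out each library. Leaving out ECs with lymphatic or immune markers was added after seeing the data. Promoter sequences are from RefSeq (GRCm38.p6) and gene positions from GENCODE vM21. Results for some items are not reported here.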

Additional observations from a re-analysis of the deposited data

Results flagged for a closer look

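A difference of the responses, implanted minus spontaneous, that passed its own limma test marked 16 of the named genes. Values are log2, and adjusted p is Benjamini-Hochberg over all genes tested. Among genes with the larger response in implanted tumours, the difference was 7.45 for Ccl20 (adjusted p = 0.0389), 2.83 for Ctss (adjusted p = 0.0419) and 2.59 for Fam46a (adjusted p = 0.0329). It was 2.03 for Angpt2 (adjusted p = 0.0125) and 1.96 for Col13a1 (adjusted p = 0.0329).

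Among genes with the smaller response in implanted tumours, the difference was -4.55 for Cxcl9 (adjusted p = 0.00495), -3.59 for Ubd (adjusted p = 0.0375) and -3.54 for Serpina3g (adjusted p = 0.0206). It was -3.43 for H2-Aa (adjusted p = 0.0207), -3.27 for F830016B08Rik (adjusted p = 0.00155) and -2.83 for Gbp2 (adjusted p = 0.0203). Zbp1 stood at -2.77 (adjusted p = 0.0125), Ifit3 at -2.09 (adjusted p = 0.0203) and Irgm1 at -1.99 (adjusted p = 0.0206). Tap1 stood at -1.80 (adjusted p = 0.0389) and Irf7 at -1.76 (adjusted p = 0.0202). None of the 16 was called when low genes were kept in the test.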

How the results depend on the processing

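Leaving out single implanted libraries gave 507 to 732 genes called higher and 658 to 1414 called lower in the implanted tumours, both lowest without PBS 2. Genes called lower numbered 1036 under median-of-ratios scaling and 781 after thinning to 2000 UMIs. A limma fit of only the implanted libraries, without the spread of the spontaneous ones, gave 675 genes higher and 1096 lower. It lost the calls of Tnfrsf1a, Nfkbia, Bid, Kdr and Lama4 (adjusted p = 0.0793, 0.0614, 0.0829, 0.06 and 0.106). In that fit 3 genes of the TNF and NF-kB list and 4 immediate early genes were called higher, and 1 PI3K-AKT gene lower. For the difference of the responses, leaving out single libraries gave 0 to 52 genes higher and 2 to 86 lower. With low genes kept, both counts were 0. In all deposited cells they were 10 and 33, and the higher count was 12 under the strict cell rule and 16 after thinning. With the replicate block the implanted counts were 827 and 1560, and those of the difference 21 and 61. With that block Gbp2, Il6, Egr1 and Col13a1 passed the test within implanted tumours (adjusted p = 0.0153, 0.0183, 0.0232 and 0.00459), and the Ctss difference was no longer called (adjusted p = 0.0552). The libraries share only a number, since no source pairs them and the correlations of same-numbered deviations ran from -0.156 to 0.153. As cGAMP minus PBS, the share of ECs with mitosis genes changed by -7.83 percentage points, by -13.8 without thinning, by -6.525 at 1000 UMIs, and by -10.67 and -6.579 with at least 1 and 3 genes. The share with antiviral genes changed by 58.51 points, by 17.24 without thinning, by 74.32 at 1000 UMIs, and by 2.275 and 78.56 with at least 1 and 5 genes. The causes were not tested. Of 55 named genes called within implanted tumours, 43 kept call and direction under every alternative in which they could be tested. The other 12 lost the call in at least 1, and none reversed. This tally left out calls of the difference of the responses. It also left out genes named only inside a list count, some of which lost their calls, such as Ifnar1, Ifngr1 and Nid1. With 2 libraries per group and 1 shallow library, small changes and genes near 5 CPM are the least certain.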
